A study of Mus musculus with 23 samples.

Results

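The autophagy and lysosome genes followed here are 38 named genes that build the autophagosome, pick its cargo or make up the lysosome into which it empties. They were taken by gene symbol from a table of 16259 genes, on the condition that the mean over the 23 libraries reached 10 normalized reads, which all 38 met. Each library was made from poly-A selected RNA of whole proximal small intestine of a mouse, labelled male, that was either wild type or lacked Ddit4 (Ddit4-/-), the gene of a stress-induced inhibitor of mTORC1. Mice were fed ad libitum, fasted for 24 h, or fasted for 24 h and refed (called prefasted where doxorubicin was given). Doxorubicin, a DNA-damaging chemotherapy, was injected into the peritoneum at 20 mg/kg, 2, 6, 12 or 24 h before harvest, and prefasted mice had been refed for that same time. Untreated tissue was taken at 0, 2 or 6 h. The wild-type groups were ad libitum untreated at 0 h, fasted at 0 h, refed 2 h, refed 6 h, and ad libitum or prefasted with doxorubicin at 2, 6, 12 and 24 h, with 1 library each and 12 in all. The Ddit4-/- groups were the same apart from ad libitum doxorubicin at 2 h, with 1 library each and 11 in all. No condition was repeated within a genotype, so the pair of genotypes served in place of replicates and a p-value reflects no more than the scatter among the libraries at hand.

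Autophagy encloses cytoplasm in a double membrane and delivers it to the lysosome for breakdown. The ULK1 complex starts the process, a lipid kinase complex with Beclin 1 marks the site, and a pair of ubiquitin-like conjugation systems attach LC3 and GABARAP proteins to the growing membrane. When nutrients are plentiful, mTORC1 on the lysosome surface restrains ULK1 and keeps TFEB and TFE3, transcription factors for lysosome genes, in the cytoplasm. In the small intestine autophagy is known for its part in Paneth cell secretion, where loss of ATG16L1 disturbs the granules. Transcript levels do not measure autophagic flux, and protein and lipidation were not analysed here.

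Recovered reads per library ranged from 11.42 M to 23.43 M, so that 1 read stood for 0.705 to 1.67 normalized reads, the authors' counts divided by a size factor per library. Ddit4 itself lay between 66.85 and 414.5 normalized reads in the 12 wild-type libraries and between 0 and 11.28 in the 11 Ddit4-/- libraries, with no overlap. In 3 Ddit4-/- libraries labelled male (ad libitum untreated, fasted and refed 2 h) fewer than 20 reads fell on Y-linked genes. The Ddit4-/- fasted and the wild-type refed 6 h libraries carried pancreatic acinar transcripts, with summed levels of 68010 and 178300 normalized reads over 10 markers. Values of the fasting and refeeding comparisons, and the genes called with doxorubicin, are therefore also given without these libraries. Without the 3 that lack Y-linked reads, fasting and refed 2 h rest on 1 wild-type library a side. Without the 2 with pancreatic transcripts, the refed 6 h comparison sets the Ddit4-/- refed library against the wild-type fasted one. With 1 library on a side, a value shows a size and no spread. Titles of the 4 wild-type prefasted doxorubicin libraries read untreated while their drug label reads doxorubicin, and the drug label was followed. Enterocyte markers were abundant in every library, at 950700 to 2002000 normalized reads summed over 11 genes. In such whole tissue, fewer cells of a type and less RNA per cell cannot be told apart.

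On a scale per kilobase of annotated exon, the means over all libraries ran from 7050 normalized reads per kb for Lamp1, the main glycoprotein of the lysosome membrane, to 17.8 for Uvrag, a partner of Beclin 1. Gabarap, which joins the autophagosome membrane late in its growth, followed Lamp1 at 4560 per kb. The lumenal proteases Ctsb and Ctsd came next at 2530 and 1560 per kb, and Hexa, which trims gangliosides, stood at 1150 per kb. The initiation kinase Ulk1 (67.4 per kb) and the cholesterol exporter Npc1 (34.1 per kb) were among the lowest. Most members varied little: 21 of 38 differed by less than 2-fold between their highest and lowest library, 11 by 2-fold to 3-fold and 6 by 3-fold or more. Those 6 were Ctsl (4.73-fold), Gabarapl1 (4.55-fold), Wipi1 (4.33-fold), Npc1 (3.84-fold), Map1lc3a (3.2-fold) and Atg9a (3.14-fold). The wild-type refed 6 h library held the highest value of 7 members, and the Ddit4-/- refed 6 h library held the lowest value of 7 members and the highest of 4.

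By role, the members spread over the 23 libraries as follows. Among initiation genes, the kinases Ulk1 and Ulk2 ran from 355.1 to 592.4 and from 416.2 to 917.9 normalized reads, and their partner Atg13 from 562.9 to 886.3. Tfeb ran from 351 normalized reads in the wild-type ad libitum library at 2 h of doxorubicin to 677.8 in the Ddit4-/- ad libitum library at 12 h, and Tfe3 from 518 to 858.9. The 7 conjugation genes were among the steadiest: Atg4b, a protease that trims LC3 before it is attached, varied 1.44-fold (628.5 to 908.2 normalized reads), and the widest of them, Atg3, 2.01-fold. Another LC3 protease, Atg4d, ran from 1209 to 2000, and Gabarapl2, a GABARAP relative, from 764.7 to 1215. The cargo receptors Sqstm1 (2130 to 4868) and Bnip3l (616.9 to 1494) shared their extremes: both peaked in wild type given doxorubicin for 2 h without a fast and were lowest in the Ddit4-/- refed 6 h library. The same Ddit4-/- library was lowest for Map1lc3a, Map1lc3b and Gabarapl1, while its wild-type partner was highest for Map1lc3a, Gabarap and Gabarapl2. At refed 6 h Map1lc3a stood at 585.1 normalized reads in wild type and 183.1 in Ddit4-/-, the top and bottom of its range, with no second library of either kind to show the spread. Lamp2, which lets chaperones bring proteins into the lysosome, ran from 3907 to 7810, and Wipi2, which recruits Atg16l1, from 784.5 to 1192.

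**Figure D1:**
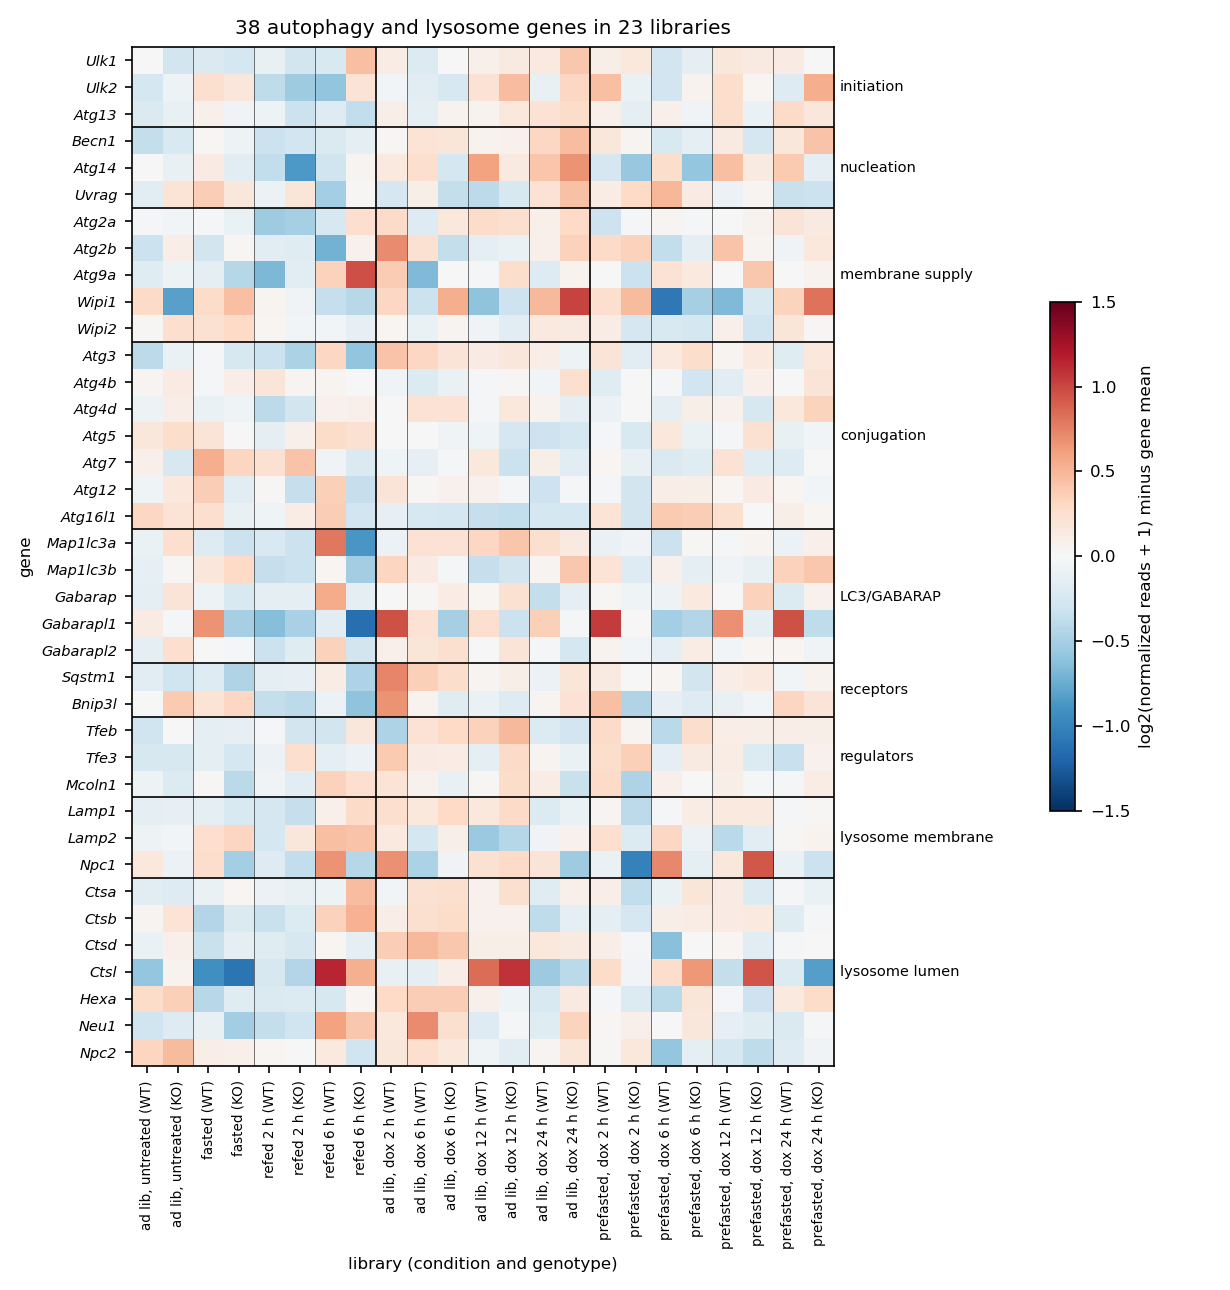
Each row is 1 of the 38 genes grouped by role and each column 1 of the 23 libraries (WT, wild type; KO, Ddit4-/-); color gives log2(normalized reads + 1) minus the gene's mean over all libraries. Ctsl, Gabarapl1 and Wipi1 show the strongest contrasts, and most other rows stay near white.

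The untreated fasted and ad libitum libraries address what a 24 h fast did to these genes. None of the 38 passed an adjusted p of 0.05 in limma, against 0.343% of all 11939 genes tested. An unadjusted p below 0.05 was found for 4 members, beside 843 of the 11939 genes. Of the members edgeR called 0 and DESeq2 called 1 (Ctsb), beside 30 and 148 of all genes. Of the 7 lumenal lysosome genes 6 had a negative log2 difference, with a median of -0.31 beside -0.002 for all genes. Hexa was at 2739 and 2892 normalized reads in the ad libitum wild-type and Ddit4-/- libraries and at 1684 and 1987 after the fast. Both fasted values lay below both fed ones, and the log2 difference was -0.62 ± 0.19 (SE, adjusted p = 0.285, limma). Ctsb, a cysteine protease, was at 15490 and 17380 normalized reads with food and at 11130 and 12970 without, again with no overlap (log2 difference -0.45 ± 0.15, adjusted p = 0.379, limma). Atg7, the E1-like enzyme of both conjugation systems, lay the other way, at 345 and 275.4 normalized reads with food and 477.9 and 408.7 without (log2 difference 0.52 ± 0.21, adjusted p = 0.579, limma). The values of Ulk2, Atg13, Becn1, Map1lc3b, Lamp2 and Ctsa also lay higher in both fasted libraries than in both fed ones. In all, 13 members did not overlap between the groups in either direction, or 34.2% of the list, and 38.8% of all genes did the same. Without the 3 libraries lacking Y-linked reads and without the 2 with pancreatic transcripts, the log2 differences were -0.70 and -0.71 for Hexa, -0.48 and -0.52 for Ctsb and 0.47 and 0.57 for Atg7. The first value of each is 1 wild-type library against 1, and the second has the wild-type fasted library alone on its side. The lumenal median was then -0.23 and -0.295, with 5 of 7 genes below 0, while the median over all 38 went from -0.035 to 0.081 and 0.042. Paneth markers were summed at 22270 to 28170 normalized reads with food and 10510 to 17820 after the fast (9 genes), smooth muscle markers at 697.9 to 2692 and 498.7 to 671.2 (6 genes), and macrophage markers at 1945 to 3092 and 2422 to 3293 (11 genes). Their part in the members' values was not tested.

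Refeeding for 2 h was compared with the fast, and the same fasted pair also serves the 6 h comparison. Fasted tissue was taken at 0 h alone, so refeeding and time point cannot be told apart. Again 0 of 38 members passed in limma (0.251% of all genes did), with 5 at an unadjusted p below 0.05, beside 1035 of 11939 genes. By edgeR and DESeq2 0 members were called, beside 19 and 146 of all genes. The log2 differences of 28 of 38 members were below 0, with a median of -0.12 beside 0.03 for all genes. Map1lc3b, the LC3 that marks autophagosomes, was at 1833 and 2010 normalized reads in the fasted wild-type and Ddit4-/- libraries and at 1283 and 1307 after 2 h of food (log2 difference -0.57 ± 0.19, adjusted p = 0.34, limma). Bnip3l, a receptor that hands mitochondria to LC3, went from 1084 and 1162 normalized reads to 731.5 and 713.1 (log2 difference -0.64 ± 0.24, adjusted p = 0.401, limma). Atg2a, which moves lipid into the growing membrane, went from 738.9 and 700.3 normalized reads to 517.8 and 531.6 (log2 difference -0.45 ± 0.18, adjusted p = 0.441, limma). For each of the 3 genes both refed values lay below both fasted ones. That held for 15 members in all, or 39.5% of the list, beside 20.3% of all genes, while 3 members (Sqstm1, Tfe3 and Ctsl) lay higher without overlap, or 7.89% of the list beside 23.1% of all genes. Without the 3 libraries lacking Y-linked reads and without the 2 with pancreatic transcripts, the median over the 38 was -0.242 and -0.212, and the log2 differences were -0.515 and -0.491 for Map1lc3b, -0.57 and -0.54 for Bnip3l and -0.51 and -0.53 for Atg2a. Here too the first values set 1 wild-type library against 1, and the second keep the wild-type fasted library alone. In the same comparison 9 of 9 Paneth markers lay above 0 (median log2 difference 1.58) and 8 of 11 macrophage markers below 0 (median -0.94). Adipose markers lay above 0 for 7 of 7 genes (median 5.89), with summed levels of 2294 to 3421 normalized reads in the fast and 5175 to 6964 at 2 h. The part of these markers in the members' values was not tested.

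After 6 h of refeeding 4 members were called, 3 of them lysosome genes. Ctsl, Ctsb and Neu1, all lumenal hydrolases, and Atg9a, the lipid scramblase on the vesicles that seed the autophagosome, were higher than in the fast. These 4 of 38 members (10.5%) compare with 7.02% of all genes called in either direction and 3.56% called higher, and no member was called lower (3.46% of all genes). Ctsl (mm10, chr13:64359337-64370890, minus strand), a cysteine protease, was at 724.5 and 639.3 normalized reads in the fasted wild-type and Ddit4-/- libraries and at 3024 and 1985 after 6 h. The wild-type refed value was the highest of the 23 libraries, both fasted values were the lowest, and the rise was 3.6-fold (log2 difference 1.85 ± 0.34, adjusted p = 0.00794, limma). Ctsb went from 11130 and 12970 normalized reads to 19160 and 21700, the 2 highest values in the data (log2 difference 0.76 ± 0.15, adjusted p = 0.0107, limma). Neu1, the lysosomal sialidase, went from 939.8 and 704 normalized reads to 1540 and 1337 (log2 difference 0.82 ± 0.21, adjusted p = 0.0283, limma). Atg9a went from 1018 and 839.9 normalized reads to 1439 and 2218 (log2 difference 0.95 ± 0.23, adjusted p = 0.0243, limma). None of the 4 overlapped between the groups.

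The other lysosome members did not pass. With the 3 called genes counted, log2 differences were above 0 for 6 of 7 lumenal genes (median 0.23), the exception being Npc2 (-0.16), for 3 of 3 membrane genes (median 0.25) and for 3 of 3 regulators (median 0.09), beside a median of -0.045 for all genes. With quantile normalization 5 of 7 lumenal genes (median 0.053) and 2 of 3 membrane genes (median 0.153) lay above 0. Mcoln1, the calcium channel through which lysosomes activate TFEB, was at 836.3 and 626.2 normalized reads in the fast and 1050 and 984.4 after 6 h (log2 difference 0.49 ± 0.21, adjusted p = 0.152, limma). Lamp1 went from 16900 and 16000 normalized reads to 19760 and 22750 (log2 difference 0.37 ± 0.17, adjusted p = 0.193, limma). Tfeb itself was at 436 and 445.3 normalized reads in the fast and 399.5 and 545.7 after 6 h (log2 difference 0.08 ± 0.22, adjusted p = 0.842, limma). Npc1 split by genotype, from 440.6 and 256.9 normalized reads to 586.8 in wild type and 272.8 in Ddit4-/- (log2 difference 0.25 ± 0.37, adjusted p = 0.707, limma). Without the 3 libraries lacking Y-linked reads and without the 2 with pancreatic transcripts, the log2 differences were 0.36 and 0.39 for Mcoln1, 0.31 and 0.42 for Lamp1, 0.036 and 0.259 for Tfeb, and 0.025 and -0.475 for Npc1. The first value of each keeps the wild-type fasted library alone. The second sets the Ddit4-/- refed library against the wild-type fasted one, so genotype enters it. The median over the 38 was 0.074, and it was 0.015 and -0.101 without these sets.

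Several early machinery genes lay below the fast at 6 h, none past the threshold. The initiation and nucleation genes Atg13, Becn1 and Uvrag, together with Wipi1, Wipi2, Atg7, Map1lc3b and Bnip3l, had both refed values below both fasted ones. Those 8 members are 21.1% of the list, beside 25% of all genes, while 11 members (28.9%) lay higher without overlap, beside 23.2% of all genes. Atg7 was at 314.3 and 280.2 normalized reads after 6 h (log2 difference -0.57 ± 0.21, adjusted p = 0.104, limma). Bnip3l was at 881 and 616.9 (log2 difference -0.61 ± 0.24, adjusted p = 0.122, limma). Without the same sets of libraries the log2 differences were -0.62 and -0.65 for Atg7 and -0.45 and -0.72 for Bnip3l.

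All 4 calls at 6 h depended on the fasted Ddit4-/- library, which both lacks Y-linked reads and carries pancreatic transcripts. Without it, Ctsl had a log2 difference of 1.70 (adjusted p = 0.126), Ctsb 0.83 (adjusted p = 0.105), Atg9a 0.69 (adjusted p = 0.29) and Neu1 0.58 (adjusted p = 0.318), and only 1 gene of the whole table was called. Leaving out both libraries that carry pancreatic transcripts sets 1 Ddit4-/- refed library against 1 wild-type fasted library, joined through the genotype difference of the other conditions. The calls were lost there too, at log2 differences of 1.25 for Ctsl, 0.89 for Ctsb, 0.92 for Atg9a and 0.43 for Neu1. Pancreatic transcripts, genotype and the loss of libraries cannot be told apart in that fit. Atg9a was also not called without the Ddit4-/- refed 6 h library (log2 difference 0.72, adjusted p = 0.128), nor Neu1 without the wild-type refed 6 h library (0.70, adjusted p = 0.1). Across the 10 acinar markers the summed level was 112.6 and 68010 normalized reads in the fasted wild-type and Ddit4-/- libraries and 178300 and 46.7 in the refed 6 h ones, so it was high in 1 library on each side. At 6 h 2 of 6 stem cell markers (median log2 difference -1.42) and 1 of 9 Paneth markers (median -1.51) were called lower, 10 of 11 enterocyte markers lay above 0 (median 0.28), and their part in the members' values was not tested. Macrophage markers, summed over 11 genes, were at 3151 to 3731 normalized reads at 6 h, with Cd163 at 0 in both libraries.

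**Figure D2:**
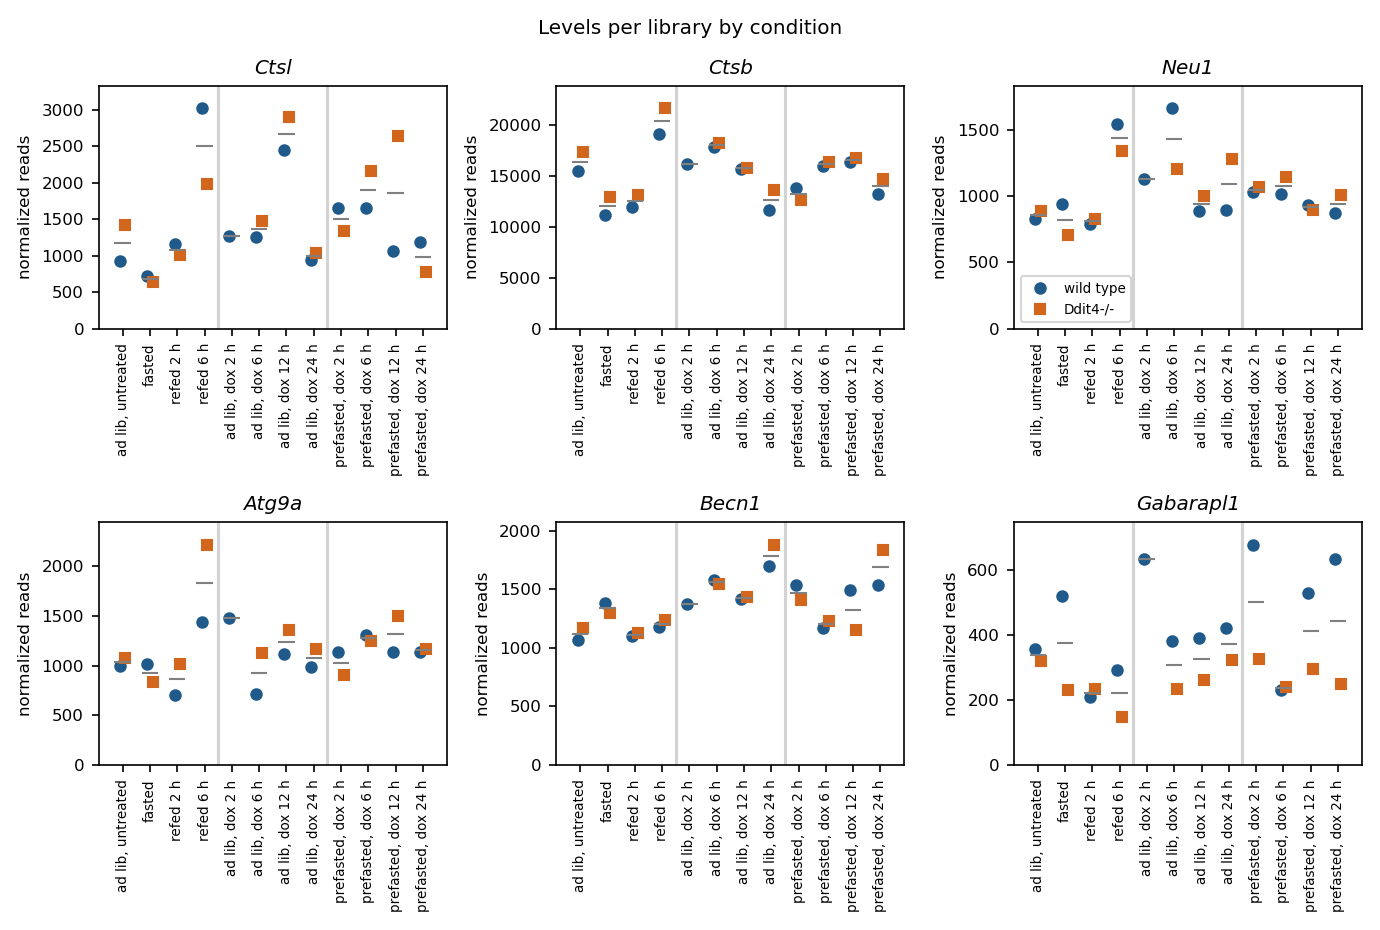
Normalized reads per library for 6 genes (vertical axes start at 0), by condition, with wild-type libraries as circles, Ddit4-/- libraries as squares and grey bars at the condition mean; ad libitum doxorubicin at 2 h has a wild-type library alone. Ctsl peaks at refed 6 h (3024 and 1985) and at 12 h of doxorubicin (2442 and 2898), and Gabarapl1 squares lie under the circles in 9 of 11 pairs.

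TFEB and TFE3 are known to bind the DNA word TCACGTGA, and it was searched for near the members' start sites. Windows of 300 bases, from 250 before to 50 after a RefSeq start (GRCm38.p6), were found for 31 of the 38 members, and TCACGTGA, which reads the same on both strands, was found in 4 of them (12.9%) beside 304 of 27025 genes with a window (1.12%). The 4 were Ctsd, Ctsa, Mcoln1 and Atg3. The shorter E-box CACGTG, which lies within TCACGTGA, was in 9 of 31 members (29.0%) beside 8.09% of genes. The windows of Ctsd, Ctsa and Mcoln1 are shown from 150 bases before to 30 bases after the start because they hold the word near the start of 2 lumenal proteases and the lysosomal calcium channel. Ctsa has 2 such windows, and the one that holds the word is shown. They are written 5′ to 3′ along the gene with TCACGTGA in capitals.
Ctsd, chr7:142387798-142387977, minus strand: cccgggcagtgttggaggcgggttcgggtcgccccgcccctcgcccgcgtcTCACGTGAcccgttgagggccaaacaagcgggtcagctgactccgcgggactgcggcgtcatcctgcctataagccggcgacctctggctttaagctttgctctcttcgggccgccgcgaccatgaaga
Ctsa, chr2:164833623-164833802, plus strand: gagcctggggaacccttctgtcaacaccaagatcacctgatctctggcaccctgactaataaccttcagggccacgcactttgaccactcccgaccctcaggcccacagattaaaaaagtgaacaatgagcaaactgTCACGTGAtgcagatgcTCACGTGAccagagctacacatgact
Mcoln1, chr8:3500369-3500548, plus strand: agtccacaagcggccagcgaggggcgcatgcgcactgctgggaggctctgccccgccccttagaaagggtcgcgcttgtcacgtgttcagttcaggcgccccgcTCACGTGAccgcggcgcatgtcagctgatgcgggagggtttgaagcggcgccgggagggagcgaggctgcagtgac
The word begins 99 bases before the start in Ctsd and 46 bases before it in Mcoln1, and Ctsa has 2 copies, 13 bases before and 4 bases after the first base of the transcript. A match is a run of letters and not a measured binding site. Of the 4 genes called at 6 h of refeeding, Ctsl has the shorter E-box in its window and Neu1 has TGAGTCA, the word of AP-1 factors, which was found in 1 of 31 members and 5.95% of genes. None of the 3 genes shown passed the threshold in any comparison.

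In the wider pathway, 12 of 123 further autophagy and lysosome genes were called higher and 4 lower at 6 h of refeeding, or 13% in all, beside 7.02% of all genes (3.56% higher and 3.46% lower). These 16 calls were all lost without the fasted Ddit4-/- library, without the 3 libraries lacking Y-linked reads, without the 2 with pancreatic transcripts, or with array weights. Most calls of the whole table were lost in each of these settings too, and array weights left 2 genes called. The first 3 settings keep the wild-type fasted library alone. The V-ATPase, the proton pump that acidifies lysosomes, had 4 of 16 listed subunits called higher, among them Atp6v0a1 (log2 difference 1.06 ± 0.18, adjusted p = 0.00624, limma), Atp6v1a (0.87 ± 0.15) and Atp6ap1 (0.62 ± 0.15). Of 33 further hydrolases 5 were higher and 2 lower. Gusb, which cleaves glucuronides, went from 399.3 to 471.1 normalized reads in the fast to 1070 to 1413 (2.83-fold higher, SE 0.24 on the log2 scale, adjusted p = 0.00604, limma). Tpp1, a tripeptidase, had a log2 difference of 0.95 ± 0.21. Epg5, a tether between autophagosome and lysosome, was higher (1.35 ± 0.25) and Wdr45, a relative of Wipi1, lower (-1.39 ± 0.26). Tollip (1.12 ± 0.20), a cargo receptor, and the chloride transporter Clcn7 (0.90 ± 0.26) were higher, and Sesn2, a leucine sensor that holds back mTORC1, was lower (-1.46 ± 0.25). In the fast, Lgmn, an asparagine-specific protease, was the 1 called gene of the 123, higher at 1524 to 2066 normalized reads against 495.6 to 579 with food (log2 difference 1.73 ± 0.28, adjusted p = 0.00991, limma). The Lgmn call was lost without any 1 of the 4 libraries compared and without either set above, at log2 differences of 1.65 to 1.83 (adjusted p = 0.0826 to 0.335). At 2 h of refeeding 0 of 123 were called.

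Doxorubicin in ad libitum fed mice was compared with the untreated ad libitum pair, which the 6, 12 and 24 h comparisons share. That pair was taken at 0 h alone, so drug and time point cannot be told apart in these comparisons. At 6 h 0 of 38 members passed in limma (1.34% of all genes), with 8 at an unadjusted p below 0.05, beside 1763 of 11939 genes. Of the members 0 were called by edgeR and 1 by DESeq2 (Neu1), beside 146 and 500 of all genes. Neu1 was at 826.8 and 883.9 normalized reads in the untreated wild-type and Ddit4-/- libraries and at 1662 and 1199 at 6 h (log2 difference 0.72 ± 0.21, adjusted p = 0.0974, limma). Becn1, the core of the nucleation complex, was at 1064 and 1167 normalized reads untreated and 1581 and 1548 at 6 h (log2 difference 0.49 ± 0.16, adjusted p = 0.142, limma). Sqstm1, the p62 receptor for ubiquitin-tagged cargo, was at 2629 and 2388 normalized reads untreated and 3760 and 3518 at 6 h (log2 difference 0.54 ± 0.18, adjusted p = 0.152, limma). In all 3 both treated values lay above both untreated ones. That held for 12 members (31.6%) beside 25.3% of all genes, and 4 members (10.5%) lay lower without overlap, beside 25.1% of all genes. The wild-type library at 2 h, which has no Ddit4-/- partner, held the highest Sqstm1 value in the data, 4868 normalized reads.

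At 12 h Ctsl alone passed, 1 of 38 members beside 9% of all genes (4.78% higher and 4.21% lower). It was at 920 and 1418 normalized reads untreated and 2442 and 2898 at 12 h in wild-type and Ddit4-/- libraries, a 2.33-fold rise (log2 difference 1.22 ± 0.34, adjusted p = 0.0347, limma). By 24 h Ctsl was at 942.6 and 1036 normalized reads, within the untreated range. Npc2, which carries cholesterol in the lysosome lumen, was at 1966 and 2201 normalized reads untreated and 1505 and 1405 at 12 h (log2 difference -0.52 ± 0.18, adjusted p = 0.0785, limma). Atg16l1, which sets where LC3 is attached, was at 422.3 and 390.6 normalized reads untreated and 266.8 and 262.7 at 12 h (log2 difference -0.62 ± 0.21, adjusted p = 0.0821, limma). For both, the treated values lay below the untreated ones without overlap. That held for 10 members (26.3%) beside 29.7% of all genes, and 19 members (50%) lay higher without overlap, beside 29.1% of all genes.

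At 24 h Becn1 alone passed, 1 of 38 members beside 3.11% of all genes (1.73% higher and 1.37% lower). Its values of 1694 and 1881 normalized reads compare with 1064 and 1167 untreated, a 1.6-fold rise (log2 difference 0.68 ± 0.16, adjusted p = 0.029, limma). Across the 3 times Becn1 lay above both untreated values in each of the 6 treated libraries. At 24 h 13 members (34.2%) lay higher without overlap beside 29.6% of all genes, and 6 (15.8%) lower beside 27.9%. Nucleation and initiation genes all had log2 differences above 0 at 24 h, 3 of 3 and 3 of 3, with medians of 0.60 and 0.41 beside 0.02 for all genes. Ulk1 was at 477.2 and 574 normalized reads beside 431.3 and 356.7 untreated, and Atg14, the subunit that directs the kinase to autophagy, at 244.6 and 292.6 beside 183.4 and 170.5. Wipi1 had a log2 difference of 1.02 ± 0.40 (adjusted p = 0.176, limma), with treated values of 105 and 150.9 normalized reads beside 91.21 and 41.77. Atg5, which with Atg12 forms the conjugate that attaches LC3, lay at 874.4 and 903.9 normalized reads beside 1216 and 1302 (log2 difference -0.50 ± 0.16, adjusted p = 0.102, limma). Ctsb was at 11630 and 13640 normalized reads beside 15490 and 17380 (log2 difference -0.38 ± 0.15, adjusted p = 0.167, limma).

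The Ctsl call at 12 h and the Becn1 call at 24 h were each lost when any of the 4 libraries of its contrast was left out, with log2 differences of 0.93 to 1.51 for Ctsl and 0.60 to 0.76 for Becn1. Without the 3 libraries lacking Y-linked reads they were 1.48 (adjusted p = 0.144) and 0.74 (adjusted p = 0.24). Macrophages are rich in cathepsins, and their 11 markers were summed at 1945 to 3092 normalized reads untreated, 4150 to 6108 at 6 h, 8660 to 8834 at 12 h and 4049 to 6128 at 24 h, with Cd163 at 0 in both libraries untreated and at 6 and 12 h. Of these markers 1 of 11 was called higher at each time, with median log2 differences of 0.82, 0.56 and 1.14. Stem cell markers had medians of -1.74, -2.23 and -1.24. From untreated to 12 h, Paneth markers were summed at 22270 to 28170 and 5384 to 9233 normalized reads, enterocyte markers at 950700 to 1080000 and 1573000 to 2002000, smooth muscle markers at 697.9 to 2692 and 172 to 428.5, and adipose markers at 2485 to 2909 and 5723 to 6070. Averaged per marker as log2 relative to all libraries, adipose markers were at -1.843 to -1.17 untreated and -2.33 to 1.095 at 12 h. Macrophage markers were at -1.031 to 0.221 and -0.502 to 0.728 on that scale. For these 2 lists the values per marker overlapped where the sums did not. The adipose sum was 6908 normalized reads in the wild-type library at 2 h, which held the Sqstm1 and Bnip3l maxima. The part of these markers in the members' values was not tested. Among the 123 further pathway genes, Lgmn (log2 difference 1.48, 1.26 and 2.06) was called higher at 6, 12 and 24 h. At 12 h 6 of 123 were higher and 3 lower, or 7.32% beside 9% of all genes, with Ncoa4, the ferritin receptor (1.28 ± 0.28), Optn, a ubiquitin receptor (0.71 ± 0.18), and Castor2 (1.03 ± 0.21) higher. Phb2, an inner mitochondrial membrane receptor (-1.11 ± 0.18), Scpep1, a carboxypeptidase (-1.33 ± 0.24), and Vmp1, which works in autophagosome closure (-0.77 ± 0.22), were lower, and at 24 h Phb2 was lower again (-0.79 ± 0.18). Without the 3 libraries lacking Y-linked reads, Ncoa4 at 12 h and Lgmn at 24 h were the pathway genes still called.

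**Figure D3:**
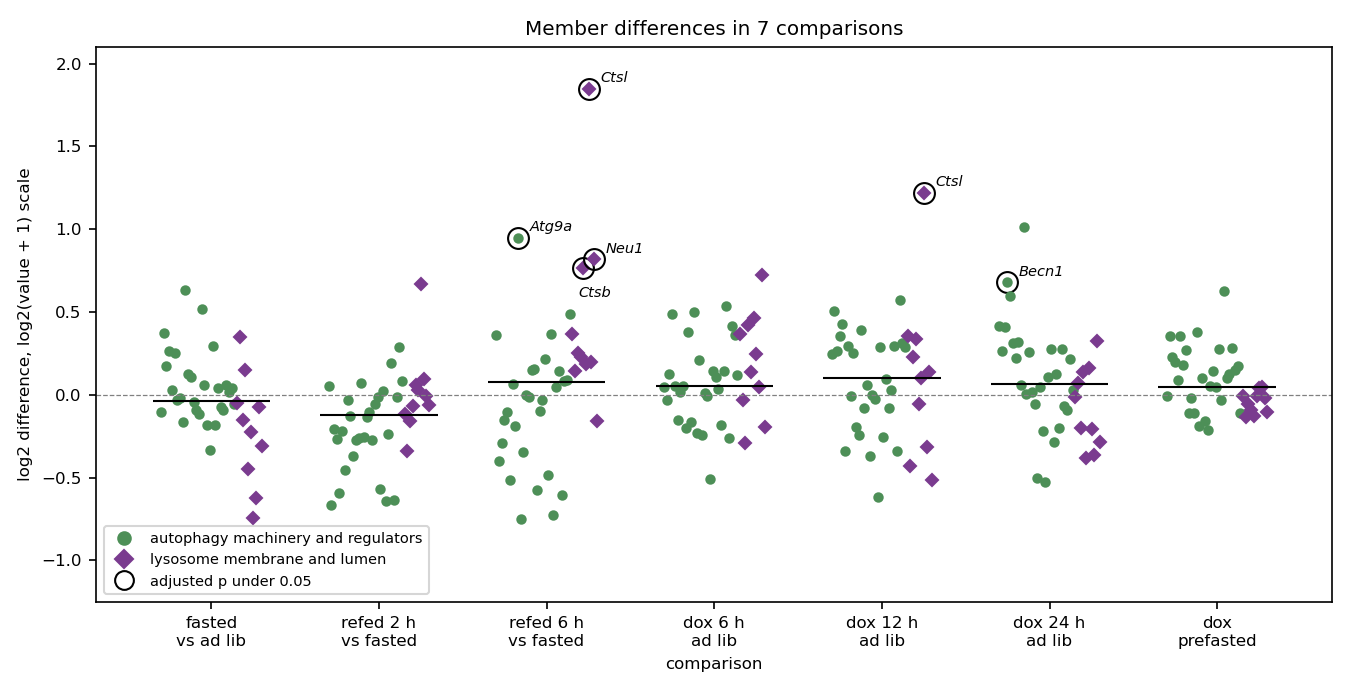
Log2 differences (log2(value + 1) scale) of the 38 genes in 7 comparisons, circles for autophagy machinery and regulators and diamonds for lysosome membrane and lumen genes, with a line at the median and rings around genes with an adjusted p under 0.05. The ringed genes are Ctsl, Ctsb, Neu1 and Atg9a at 6 h of refeeding, Ctsl at 12 h and Becn1 at 24 h of doxorubicin.

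The order of doxorubicin times was tested within each feeding group by setting 12 and 24 h against 6 h. No untreated tissue was taken at 12 or 24 h, and prefasted mice were refed for the same time. Time since the drug, time since refeeding and hour of harvest therefore cannot be told apart here. In ad libitum mice 0 of 38 members and 0% of all genes passed in limma, with 0 members in edgeR and DESeq2 (0 and 35 of all genes). An unadjusted p below 0.05 was found for 4 members, beside 824 of 11939 genes. Of the 7 lumenal lysosome genes 6 lay below 0, with a median log2 difference of -0.33 beside -0.01 for all genes. Ctsb was at 17830 and 18260 normalized reads at 6 h in wild-type and Ddit4-/- libraries, above all 4 late values of 11630 to 15810 (log2 difference -0.36 ± 0.13, adjusted p = 0.593, limma). Late values lay lower without overlap for 8 members (21.1%) beside 9.01% of all genes, and higher for 4 (10.5%) beside 8.62%. Neu1 (-0.49 ± 0.18, adjusted p = 0.593) and Hexa (-0.39 ± 0.16, adjusted p = 0.671) had the next smallest p. In prefasted mice 0 of 38 members and 0% of genes passed in limma, with 0 members in edgeR and DESeq2 (0 and 59 of all genes). An unadjusted p below 0.05 was found for 3 members, beside 1208 of 11939 genes. Gabarapl1, a GABARAP relative that nutrient stress is known to raise, was at 229.8 normalized reads at 6 h and 527.6 and 631.9 at 12 and 24 h in wild type. In Ddit4-/- libraries it was at 240.9, then 294.3 and 250.3, and the late values did not overlap the 6 h ones (log2 difference 0.75 ± 0.28, adjusted p = 0.415, limma). The titles of these wild-type libraries conflict with their drug label, and without the 4 such libraries the log2 difference was 0.171. Late values lay higher without overlap for 4 members (10.5%) beside 7.86% of all genes, and lower for 3 (7.89%) beside 5.7%. Wipi1 (0.85 ± 0.35, adjusted p = 0.438) and Becn1 (0.31 ± 0.14, adjusted p = 0.471) had the next smallest p.

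In prefasted mice doxorubicin was compared with untreated refed mice at the same 2 and 6 h. No member of 38 passed in limma (0.628% of all genes), with 2 at an unadjusted p below 0.05, beside 1810 of 11939 genes. By edgeR and DESeq2 0 members were called, beside 70 and 383 of all genes. Gabarapl1 had untreated values of 209.9 and 233.4 normalized reads at 2 h and 292.5 and 148.7 at 6 h in wild-type and Ddit4-/- libraries, and treated values of 676.9 and 325.1 at 2 h and 229.8 and 240.9 at 6 h. It was higher with the drug in 3 of 4 pairs, and the groups overlapped (log2 difference 0.63 ± 0.23, adjusted p = 0.209, limma). Atg3, the E2-like enzyme that passes LC3 to lipid, had a log2 difference of 0.38 ± 0.16 (higher in 3 of 4 pairs, adjusted p = 0.284, limma) and Map1lc3b one of 0.28 ± 0.14 (higher in 4 of 4 pairs, adjusted p = 0.349, limma). Without the wild-type refed 6 h library Atg3 passed (log2 difference 0.60, adjusted p = 0.0413). Among the 123 pathway genes Sesn2 was called higher (0.94 ± 0.18) and Scpep1 lower (-0.85 ± 0.17), or 1.63%. Neither was called without the Ddit4-/- refed 2 h library (0.87, adjusted p = 0.144, and -0.80, adjusted p = 0.164), when 0 genes of the table passed, nor without the 4 libraries whose titles conflict (1.06, adjusted p = 0.0993, and -0.74, adjusted p = 0.176), when 1 did.

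What a fast before doxorubicin did, the subject of the study by its title, was tested over 14 libraries, joined into 7 pairs of equal genotype and time. No member of 38 and 0% of all genes passed in limma, and 0 members passed in edgeR and DESeq2 (0 and 21 of all genes). An unadjusted p below 0.05 was found for 4 members, beside 766 of 11939 genes. Atg16l1 (mm10, chr1:87755870-87792428, plus strand) had the smallest p among members. In ad libitum wild-type libraries it was at 312 normalized reads at 2 h, 287.4 at 6 h, 266.8 at 12 h and 281.4 at 24 h, and in prefasted ones at 392.1, 447.1, 399.5 and 361.4. In Ddit4-/- libraries it was at 283.3, 262.7 and 281.3 normalized reads ad libitum and at 438.9, 341.7 and 347.5 prefasted at 6, 12 and 24 h. It was higher after the fast in 7 of 7 pairs, all 7 prefasted values lay above all 7 ad libitum values, and the log2 difference was 0.46 ± 0.11 (unadjusted p = 0.00095, adjusted p = 0.669, limma). Without overlap between these groups it was 1 of 8 genes of the whole table, or 0.067%. The log2 difference was 0.53 in early pairs alone, 0.41 in late pairs alone, 0.48 in wild-type pairs alone and 0.44 in Ddit4-/- pairs alone, and the adjusted p ranged from 0.0737 (DESeq2) to 0.999 over all alternatives. The prefasted Ddit4-/- library at 2 h, which has no partner and was not in the test, was at 279.8 normalized reads, inside the ad libitum range. The untreated ad libitum libraries, at 422.3 and 390.6, lay inside the range of the prefasted doxorubicin libraries.

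The 3 other members with 1 direction in all pairs each lay lower after the fast. Npc2 lay at 1405 to 1882 normalized reads ad libitum (median 1758) and 1057 to 1601 prefasted (median 1379), with overlap (log2 difference -0.31 ± 0.10, adjusted p = 0.754, limma). Ctsd, an aspartic protease, lay at 3838 to 5065 ad libitum (median 4032) and 2337 to 3879 prefasted (median 3616), with an overlap from 3838 to 3879 (-0.34 ± 0.12, adjusted p = 0.754, limma). Map1lc3a, an LC3 relative, had a log2 difference of -0.26 ± 0.11 (adjusted p = 0.754, limma). Together with Atg16l1 these are 4 of 38 members (10.5%) with 1 direction in 7 of 7 pairs, beside 1.94% of all genes. All 7 lumenal genes had log2 differences below 0 (median -0.16 beside -0.01 for all genes), from -0.34 for Ctsd to -0.01 for Ctsl. Of the macrophage markers 10 of 11 lay below 0, with a median of -0.41, and their summed level was 4049 to 8834 normalized reads ad libitum and 3634 to 7284 prefasted. Their part in the members' values was not tested. A difference between late and early pairs was tested directly, and 0 of 38 members and 0% of genes passed in limma. By edgeR and DESeq2 0 members were called, beside 2 and 23 of all genes. An unadjusted p below 0.05 was found for 3 members, beside 671 of 11939 genes. Sqstm1 had the smallest p, with a late minus early log2 difference of 0.49 ± 0.16 (adjusted p = 0.805), followed by Ctsl (-0.80 ± 0.30, adjusted p = 0.843) and Hexa (0.47 ± 0.21, adjusted p = 0.843). Of the 123 pathway genes 0 were called in either test.

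**Figure D4:**
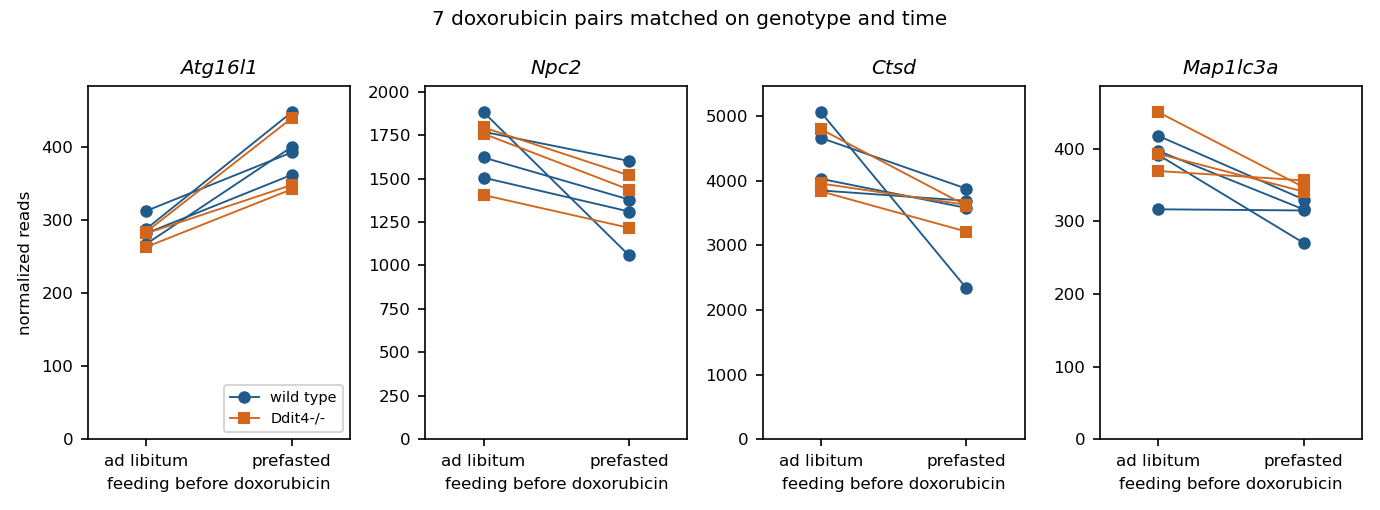
Normalized reads (vertical axes start at 0) of 4 genes in the 7 pairs of doxorubicin libraries matched on genotype and time, each line joining the ad libitum to the prefasted library of a pair. Atg16l1 lines all slope up, from 262.7 to 312 into 341.7 to 447.1, and the Npc2, Ctsd and Map1lc3a lines all slope down.

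Genotype was compared in 11 pairs of matched condition. No member of 38 passed in limma, against 0.578% of all genes, and none lay on 1 side in all 11 pairs, as 0.821% of all genes did. At an unadjusted p below 0.05 there were 3 members, beside 1430 of 11939 genes. Of the members edgeR called 0 and DESeq2 called 1 (Gabarapl1), beside 60 and 317 of all genes. Gabarapl1 (mm10, chr6:129533160-129542346, plus strand) came closest. It lay at 209.9 to 676.9 normalized reads in wild-type libraries (median 404.5) and 148.7 to 325.1 in Ddit4-/- libraries (median 250.3), lower in 9 of 11 pairs, with overlap. The log2 difference was -0.63 ± 0.14 (adjusted p = 0.0505, limma), and DESeq2 gave -0.64 (adjusted p = 0.00163). The 2 pairs that ran the other way were refed 2 h (209.9 wild type, 233.4 Ddit4-/-) and prefasted doxorubicin at 6 h (229.8 and 240.9). The widest gaps were prefasted doxorubicin at 24 h (631.9 and 250.3), the fast (519.8 and 230.6) and prefasted doxorubicin at 2 h (676.9 and 325.1). Over the 11 Ddit4-/- libraries the highest value, 325.1, was below 9 of the 12 wild-type ones. Without the 4 wild-type libraries whose titles conflict, the log2 difference was -0.54 (adjusted p = 0.306), and without the 3 Ddit4-/- libraries lacking Y-linked reads it was -0.72 (adjusted p = 0.1).

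Atg14 lay lower in 9 of 11 pairs (log2 difference -0.30 ± 0.12, adjusted p = 0.318, limma), with its lowest value, 100.7 normalized reads, in the Ddit4-/- refed 2 h library. Npc1 had a log2 difference of -0.35 ± 0.16 (lower in 8 of 11 pairs, adjusted p = 0.387, limma), and its range was wide in both genotypes, from 263.8 to 604.4 normalized reads in wild type and from 181.4 to 696.8 in Ddit4-/-. Mcoln1 was also lower in 9 of 11 pairs and Atg16l1 in 10 of 11, at log2 differences of -0.17 ± 0.09 and -0.16 ± 0.09. All 7 lumenal genes had differences above 0, but small, with a median of 0.045 beside -0.01 for all genes and a largest value of 0.10. Macrophage markers were below 0 for 11 of 11 genes in the same comparison (median -0.16). Whether the genotype difference changed with doxorubicin was tested as an interaction, and 0 of 38 members and 0% of genes passed in limma. By edgeR and DESeq2 0 members were called, beside 0 and 7 of all genes. An unadjusted p below 0.05 was found for 1 member, beside 497 of 11939 genes. Wipi1 had the smallest p (interaction 0.76 ± 0.31, adjusted p = 0.979), then Atg12, the ubiquitin-like partner of Atg5 (0.35 ± 0.18, adjusted p = 0.979), and Atg2b, a lipid transfer protein (-0.39 ± 0.21, adjusted p = 0.979). Of the 123 pathway genes 0 were called by genotype or by the interaction.

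**Figure D5:**
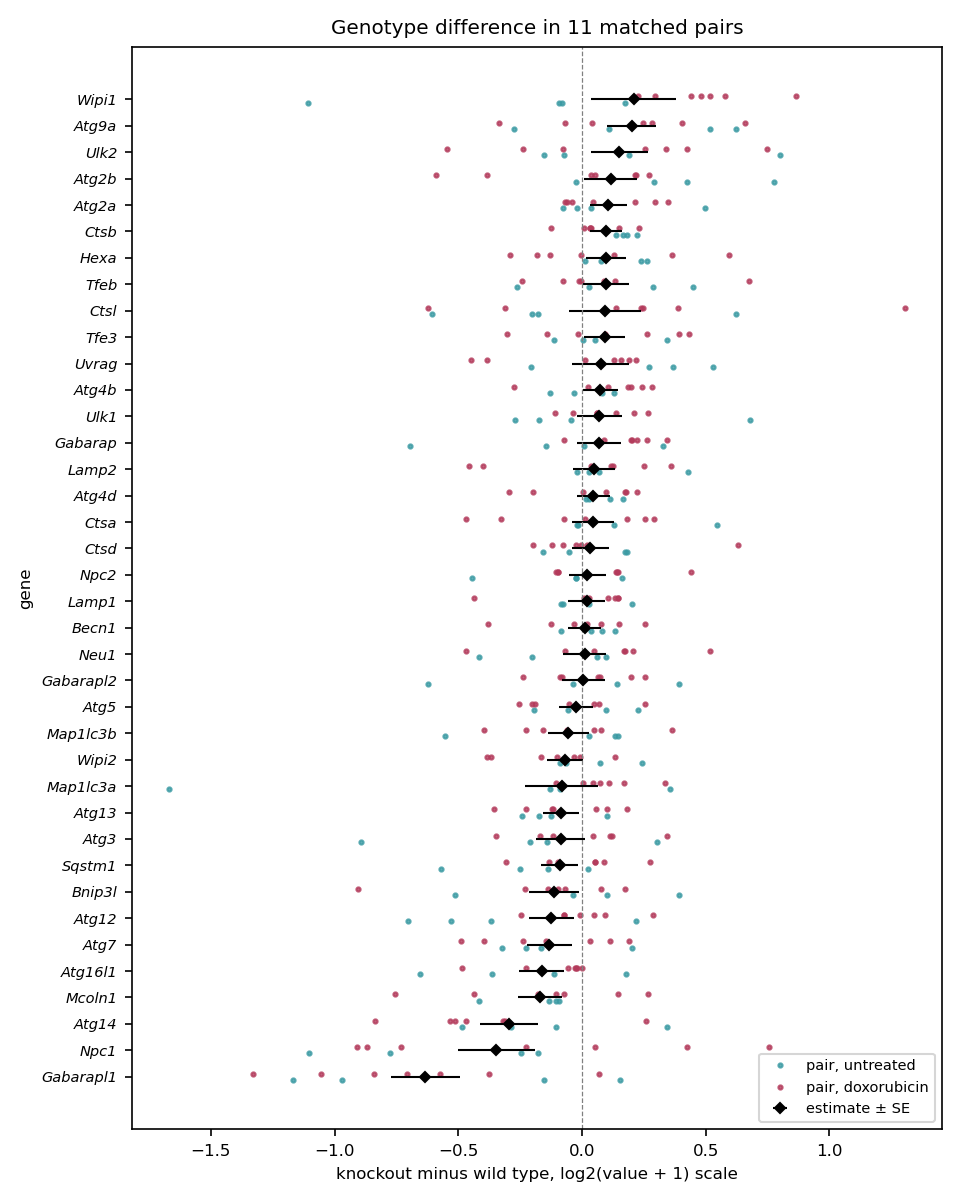
Ddit4-/- minus wild type on the log2(value + 1) scale for the 38 genes, diamonds and bars for the estimate ± SE and points for the 11 matched pairs (4 untreated, 7 with doxorubicin). Gabarapl1 lies lowest at -0.63, and most estimates lie near 0 with pairs on both sides.

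Some members overlap or resemble other genes, and whether that bears on their levels was not tested. The libraries do not record strand, and exons of 11 members (Atg2b, Atg4d, Atg9a, Becn1, Ctsa, Ctsb, Hexa, Lamp1, Map1lc3b, Npc1 and Sqstm1) overlap those of a protein-coding gene of the table on the opposite strand in GENCODE, such as Ankzf1 for Atg9a, Cntd1 for Becn1 and Fdft1 for Ctsb. Reads there cannot be told apart by strand. Map1lc3a, Map1lc3b, Gabarap, Gabarapl1 and Gabarapl2 are close relatives, and how reads matching several genes were counted is not given in the sources used here.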

How the data were processed

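Messenger RNA of 23 proximal small intestines was sequenced as non-directional paired-end libraries, per the labels' protocols. Trim Galore and STAR, besides DESeq2 and mm10, are named, without versions, in the submitters' processing notes. Read assignment, annotation and gene filter are not given in the sources used here. The deposited table holds a normalized signal: in each library 100% of values were whole multiples of what 1 read is worth (within 0.01 read), so whole reads were recovered, 11.42 M to 23.43 M per library (median 15.52 M). Libraries were grouped by genotype, feeding, drug and time labels. For 4 of them the title conflicts with the drug label, which was followed.

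Values were tested as log2(value + 1) with limma 3.58.1 (R 4.3.3, moderated with a mean trend, two-sided) over 11939 of 16259 genes, those with a mean of at least 10, with Benjamini-Hochberg adjustment over all of them and a threshold of 0.05. Log2 differences are on that scale and understate changes of low genes. A model of 12 conditions plus genotype left 10 residual degrees of freedom. The feeding test used 7 pairs (6), its late minus early difference 5 and the genotype by drug interaction 9. Alternatives were a pseudocount of 5, a mean of at least 50 or no filter, quantile normalization, array weights, edgeR 4.0.16 and DESeq2 1.42.0 on recovered reads, subsets of pairs, sets of libraries left out, and each library left out in turn. The fits were also run on simulated data, with changes put into genes with a mean of at least 50. Of 2-fold changes 34% were recovered at 6 h of refeeding, 99% for genotype and 89% for feeding before doxorubicin. Of 4-fold changes 93%, 100% and 100% were recovered. In each comparison the text names the members that passed (or, where fewer than 3 did, the 3 with the smallest p), 15 further members by level, and from each pathway list at most the 3 called genes with the smallest p. Some called pathway genes are not reported here by name. Other members named for a level, an overlap or a direction were chosen after their values were seen. The members, pathway lists and marker lists were chosen with earlier results of these data known. Positions are from GENCODE (mm10) and promoter windows from RefSeq (GRCm38.p6).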

Additional observations from a re-analysis of the deposited data

Results flagged for a closer look

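Dixon's test was applied to the members in 3 pooled groups of 7, 8 and 4 libraries, 114 tests in all, and 11 of them found a library far from the others. Chance flags about 1 in 20 groups, and the pooled groups mix times and genotypes. In 4 untreated refed libraries, the wild-type 6 h library was highest for Gabarap (12280 normalized reads, next 7608) and Npc1 (586.8, next 320.9), the Ddit4-/- 6 h library for Ctsa (6905, next 4737) and Hexa (2294, next 1960), and the Ddit4-/- 2 h library for Tfe3 (780.3, next 614). Among 8 prefasted doxorubicin libraries, the Ddit4-/- 2 h library was lowest for Lamp1 (14220, next 18330) and Atg12 (771.9, next 906.5). The wild-type 6 h library was lowest for Ctsd (2337, next 3214) and Tfeb (364.9, next 498.7), and the wild-type 2 h library for Atg2a (604.5, next 739.5). Among 7 ad libitum doxorubicin libraries, the wild-type 2 h library was highest for Bnip3l (1494, next 1090).

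Ctsb stood apart between times of the feeding comparison. Prefasted minus ad libitum was above 0 in all 4 late pairs (mean log2 difference 0.112) and below 0 in all 3 early pairs (mean -0.182). The difference tested directly was 0.29 ± 0.18 (adjusted p = 0.843, limma).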

How the results depend on the processing

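No member with the smallest p values or a call in its comparison reversed under an alternative. Among the other members signs did turn, and the median over the 38 at 6 h of refeeding went from 0.074 to -0.101 without the 2 libraries with pancreatic transcripts and to -0.012 with quantile normalization. The first of these fits has 1 library a side, of different genotype. The number of members called moved as follows. With DESeq2 it was 1 for genotype (Gabarapl1), 1 for fasting (Ctsb), 1 for doxorubicin at 6 h (Neu1) and 2 at 24 h (Becn1 and Ctsb). Of all 11939 genes DESeq2 called 317, 148, 500 and 860 in these comparisons. Genotype also gave 1 with a pseudocount of 5 (75 of 11939 genes) and with a mean of at least 50 (74 of 9554 genes). At 6 h of refeeding it was 3 with quantile normalization (Ctsb 0.53, adjusted p = 0.0678), beside 604 of all 11939 genes. With array weights it was 0 there and 3, 4 and 3 for doxorubicin at 6, 12 and 24 h. Array weights called 2, 609, 2277 and 1537 of all 11939 genes in these comparisons. For doxorubicin at 12 h it was 0 with no filter (881 of 16210 genes) and 3 with quantile normalization (1031 of 11939 genes). With the 3 libraries that lack Y-linked reads left out, the calls at 6 h of refeeding and with doxorubicin at 12 and 24 h were lost. So were most calls of the whole table in these comparisons, where the fasted or untreated ad libitum side kept 1 wild-type library. The genotype by drug interaction of Map1lc3a was then 1.76. Its untreated side was the refed 6 h pair alone (585.1 normalized reads in wild type, 183.1 in Ddit4-/-), whose wild-type library carries pancreatic transcripts. Without the 2 libraries with pancreatic transcripts the number of members called was 2 for doxorubicin at 12 h and 1 in prefasted mice (Atg3). The calls at 6 h of refeeding were lost, as were most calls of the whole table there, with 1 library left a side. For doxorubicin at 12 h and in prefasted mice, 1288 and 258 of all 11939 genes were called without those 2 libraries. The cause of these moves was not tested. Leaving out each library in turn gave 0 to 1 for genotype, 0 to 5 at 6 h of refeeding, 0 to 3 for doxorubicin at 12 h, 0 to 1 at 24 h, 0 to 1 in prefasted mice and 0 in the other comparisons. Over all genes the counts ranged from 39 to 69 for genotype and from 0 to 300 in prefasted mice. They moved at 6 h of refeeding and with doxorubicin at 12 and 24 h as well, where leaving out a compared library keeps 1 on that side. Gabarapl1 passed by genotype without either library of the refed 2 h pair or of the prefasted doxorubicin 6 h pair (adjusted p = 0.0358 to 0.0406). With 1 library per condition and genotype, the comparisons between conditions rest on 2 libraries a side, which limits what they can detect. Where libraries were left out, some sides keep 1.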
